A study of Arabidopsis thaliana with 3 samples.

Results

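The auxin response factors (ARFs) and the Aux/IAA proteins are the transcription factors (TFs) and the repressors of the nuclear auxin response. The set examined here is 51 Arabidopsis genes, ARF1 to ARF22 and 29 Aux/IAA genes numbered between IAA1 and IAA34, taken by name from the 27444 nuclear protein-coding genes of the annotation. All 51 were found by locus and by symbol or synonym (ETT is ARF3, NPH4 is ARF7, PAP2 is IAA27). Of the 3552 DNA regions bound by the SEP3-AG(AP1-I) complex, 24 had their midpoint in the window of a member, which ran from 3000 bp upstream of the gene start to 1000 bp past the gene end. Each of the 24 regions lay in the window of a single member, and a gene with such a region is called bound below.

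The regions come from seq-DAP-seq, a sequential DNA affinity purification in which a TF complex made in vitro is incubated with sheared genomic DNA and the bound fragments are sequenced. The complex paired SEPALLATA3 (SEP3), a MADS TF that forms complexes with the other floral organ identity proteins, with a chimera of AGAMOUS (AG), the MADS TF of stamens and carpels, whose intervening (I) domain was replaced by that of APETALA1 (AP1). SEP3 carried a FLAG tag and the chimera a Myc tag, both were produced with the TnT transcription and translation system, and the DNA came from seedlings grown for 2 weeks. Unselected input DNA served as the background of the peak caller. The 3 replicates had already been combined into 1 list of regions of 400 bp with no height, read count or p-value, so the reads behind a region cannot be given, no spread between replicates can be given, and regions of wild-type SEP3-AG were not analysed here. The DNA was naked, so the list shows what the complex can bind without chromatin or other proteins, and not what it binds in a flower.

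In the absence of auxin, Aux/IAA proteins hold ARFs at their target genes in an inactive state and recruit TOPLESS corepressors. Auxin joins the Aux/IAA degron to the TIR1/AFB receptors, the Aux/IAA is degraded, and the ARFs act on genes that carry an auxin response element (AuxRE). In the flower this pathway positions the primordia, patterns the gynoecium and drives the elongation of stamen filaments, and AG and ARF3 both act in ending the activity of the floral meristem. MADS TFs bind CArG boxes, whose canonical form is CC, then 6 A or T, then GG.

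The sites below are the highest-scoring CArG-type sites in 13 of the 24 regions and carry the result described for the boxes. They are examples, and the regions with the weakest sites, whose scores are given further below, are not among them. All are given on the plus strand of TAIR10, 5′ to 3′, with the core of 10 bp in capitals. In none of them is the core a canonical box: the pair of C or the pair of G is broken, or a C or G stands among the 6 central bases.
ARF3, chr2:14331394-14331417: ttcctatCTTCTTTTGGaaagtct
ARF4, start site region, chr5:24312736-24312759: tttgtttCCCAATAAAGacttatt
ARF4, intron region, chr5:24311707-24311730: acaattaCCACAATTAGagaaaga
ARF7, chr5:7021947-7021970: cgggtttCTATAAAAAGaaatctg
ARF9, chr4:12449326-12449349: tttatatCCTTAAAGGGaacagaa
ARF18, intron region, chr3:22889141-22889164: atgcttgCCTTCTTTGGtaaatat
IAA5, intron region, chr1:5366084-5366107: atatataCTATATATAGaaacata
IAA14, chr4:8348715-8348738: ttggtgaCTAAATTTAGaaatcta
IAA15, higher-scoring region, chr1:30225322-30225345: agcttttCCAATTCTGGtaaaaag
IAA19, chr3:5263461-5263484: aacatatCCCAAAATGGtaggatt
IAA20, chr2:19309914-19309937: aaaattaCCCAAAATAGaaattca
IAA27, chr4:14325428-14325451: ttattttCCAAAAGTGGacggaag
IAA29, chr4:15583347-15583370: ccttttaCTATAAATAGgaatact

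Of the 51 genes, 18 were bound (35.3%, exact 95% interval 22.4% to 49.9%), against 18.0% of the 27393 other protein-coding genes. The comparison has to allow for window length, since a longer window meets a region more often. Among the 12654 other genes whose windows lay between the lower and upper quartiles of the members' windows, 18.5% were bound, and the mean share over genes within 5% of each member's window length was 18.8%. Both families contributed. The ARFs had 8 bound genes of 22 (36.4%, interval 17.2% to 59.3%, against 21.6% of genes of like window length), and the Aux/IAAs had 10 of 29 (34.5%, interval 17.9% to 54.3%, against 16.8%). Each family held 12 of the regions. The intervals are Clopper-Pearson intervals that reflect only the small number of genes, treat relatives as independent and say nothing of the replicates. Leaving out the 7 related ARFs of the ARF12 to ARF22 cluster and every region whose nearest gene start belongs to another gene, 14 of 44 members were bound (31.8%, interval 18.6% to 47.6%). Under the same restriction to regions nearest to their own start, 10.5% of all other protein-coding genes were bound, and 10.8% of those of like window length.

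Most bound ARFs belonged to a group of repressors. ARF1, ARF3, ARF4, ARF9, ARF11 and ARF18 were bound and ARF2 was not, so that 6 of the 7 genes of this group had a region (85.7%, interval 42.1% to 99.6%, against 22.3% of genes of like window length), with 10 regions in all. ARF1 to ARF4 and ARF9 repress reporter genes in protoplasts, and ARF11 and ARF18 are placed with them by sequence. Of the 5 activators, ARF7 was bound, and ARF5 (MONOPTEROS, which starts floral primordia), ARF6 and ARF8 (which mature the flower and are targets of miR167) and ARF19 were not (1 of 5, interval 0.505% to 71.6%, against 21.1%). None of ARF10, ARF16 and ARF17, the targets of miR160, was bound (0 of 3, which allows a share of up to 70.8%, against 21.7%). Of the 7 closely related genes ARF12 to ARF15 and ARF20 to ARF22, ARF13 alone was bound (14.3%, interval 0.361% to 57.9%, against 21.1%). The last 2 sets also lack the features of activators and are often counted with the repressors, and the wider class of 17 ARFs other than the activators had 7 bound genes (41.2%, interval 18.4% to 67.1%, against 21.7%). The groups were set with earlier results of these data known, so the 6 of 7 is a description only. With so few genes, the differences between the groups were not tested.

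**Figure D1:**
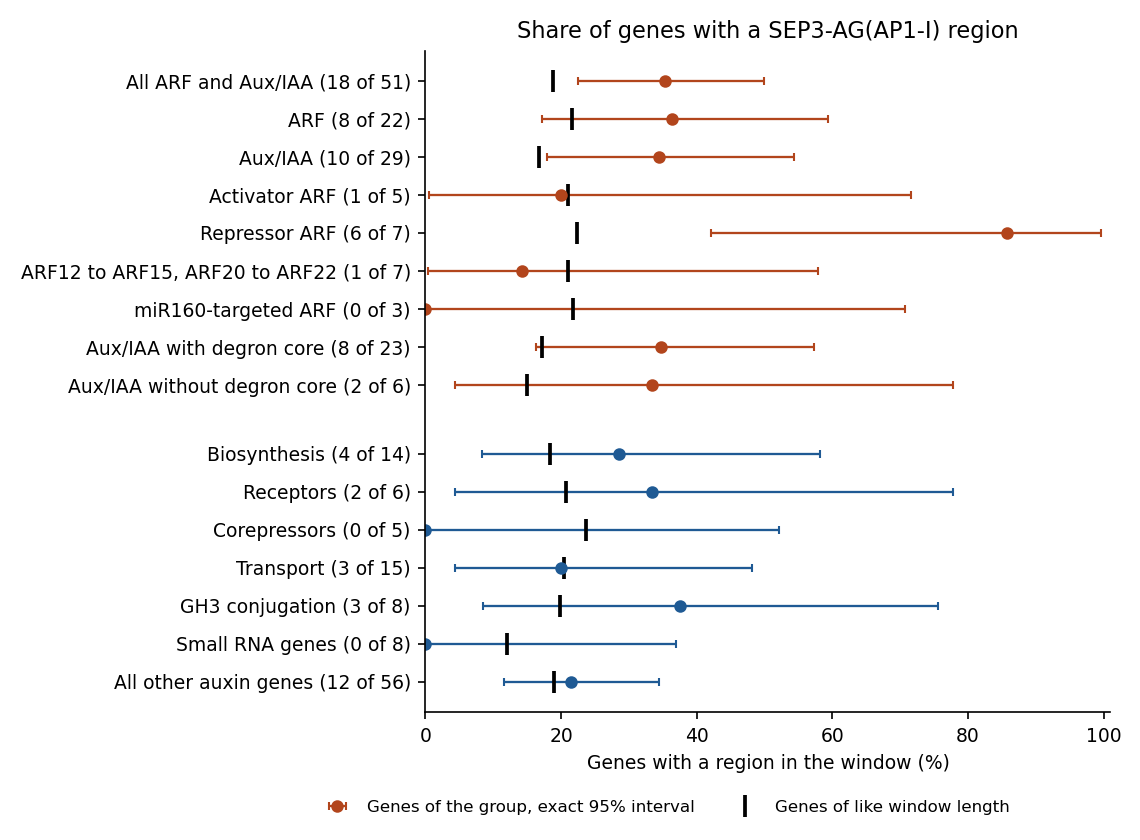
Share of genes with a SEP3-AG(AP1-I) region in the window (x axis, percent) in each group of ARF and Aux/IAA genes (orange) and in other lists of auxin genes (blue), with points for the share, bars for the exact 95% interval over genes and black ticks for genes of like window length. The repressor ARFs, with 6 of 7 bound, lie farthest from their tick (22.3%), and the interval of the 56 other auxin genes (11.6% to 34.4%) spans its own tick (18.9%). The groups were set with earlier results of these data known.

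ARF4, which specifies abaxial fate together with ARF3, held 3 regions, more than any other member. Their midpoints were 56 bp upstream of the gene start, 533 bp downstream of it in the 5′ UTR and 1065 bp downstream in an intron, and lay 589 bp and 532 bp apart. Their best sites scored 9.06, 6.74 and 9.49 bits in a matrix of the motif, where a score is the log2 ratio of the fit to the motif over the base composition. ARF3 (AT2G33860), the gynoecium patterning factor that lacks the domain for binding Aux/IAA proteins, had 1 region at chr2:14331199-14331598, with its midpoint 2420 bp upstream and a best site of 10.5 bits. ARF2, the third target of the trans-acting siRNAs that act on ARF3 and ARF4 and a regulator of senescence and organ abscission, had none.

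The other repressors were bound upstream or in introns near the start. ARF1 had regions 2862 bp upstream and 802 bp downstream of its start, the second in an intron of the 5′ UTR, with weak best sites of 6.73 and 6.19 bits. ARF18 likewise had a region 358 bp upstream, where the start of AT3G61829 was closer, with a best site of 5.85 bits, and another in an intron 1280 bp downstream with a site of 9.13 bits. ARF9 was bound 1873 bp upstream (9.87 bits), and ARF11 2920 bp upstream (8.87 bits), close to the limit of the window. Among the remaining ARFs, the region of ARF13 lay 1043 bp upstream but only 736 bp from the start of NAC016, with a site of 7.23 bits. The region of ARF7, an activator of lateral root formation and tropic growth, lay in its 5′ UTR 237 bp past the start at chr5:7021743-7022142, and its site, at 13.5 bits, scored above 82.1% of the regions outside the member windows.

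Of the 29 Aux/IAA proteins, 23 hold the conserved core of the degron through which auxin leads to their degradation, as found in the translated coding sequences. The bound shares with and without the core were close: 8 of the 23 genes with the core were bound (34.8%, interval 16.4% to 57.3%, against 17.3% of genes of like window length), and 2 of the 6 without it, IAA20 and IAA34 (33.3%, interval 4.33% to 77.7%, against 15.0%). IAA30, IAA31, IAA32 and IAA33, which lack the core too, were not bound. The highest score among the members was in the window of IAA15, where 2 regions that overlapped by 53 bp lay 2588 bp and 2241 bp upstream with best sites of 15.2 and 11.1 bits, 328 bp apart. The higher of these exceeded 94.9% of the regions outside the member windows, but both were closer to the start of AT1G80400 than to IAA15.

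Further Aux/IAA regions lay near a start or in introns. IAA19 (MASSUGU2), which acts in hypocotyl tropisms and in stamen filaments, was bound 525 bp upstream (10.4 bits). IAA27, which encodes a phytochrome-associated protein, was bound 121 bp upstream (10.7 bits), and IAA29, a gene of the shade response, had a region that straddled its start, with its midpoint 51 bp into the 5′ UTR (11.9 bits). IAA9, whose tomato homologue restrains fruit set before fertilisation, was bound in an intron of the 5′ UTR 498 bp past its start (11.8 bits). Introns also held the regions of IAA14 (SOLITARY-ROOT, which blocks lateral root initiation when stabilised), 1554 bp past the start with 11.5 bits, and of IAA34, which acts in the apical hook, 851 bp past the start with 8.37 bits. IAA5 had both an intron region 410 bp past the start (12.1 bits) and an upstream region at 716 bp (5.98 bits) that was nearer to the start of AT1G15590.

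The remaining pair of regions lay inside neighbouring genes of the ABCB family. The region of IAA11 was 2804 bp upstream, inside ABCB23 (8.20 bits). That of IAA20, a gene of vascular patterning, was 850 bp past the gene end and inside ABCB4, which encodes an auxin transporter of roots, with a site of 13.8 bits that scored above 86.1% of the regions outside the member windows. Over all members, 17 of the 24 regions, at 14 genes, were nearest to the member's own start, and 7 were nearer to another protein-coding start. In 13 cases, at 10 genes, the region lay in the window of no other protein-coding gene.

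**Figure D2:**
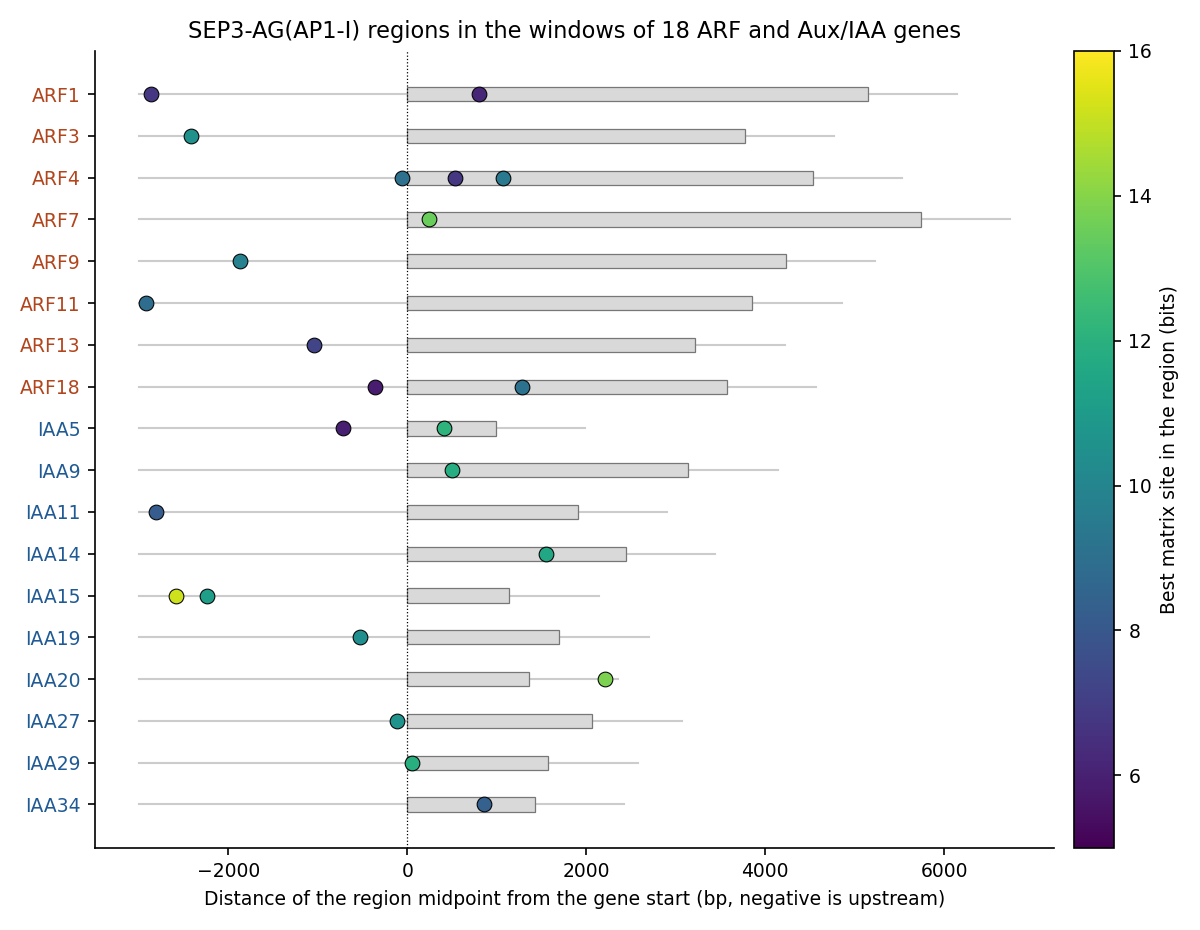
Midpoints of the 24 regions (circles) relative to the gene start (x axis, bp, negative upstream) at the 18 bound genes, with ARFs in orange and Aux/IAAs in blue lettering, the gene body as a grey bar, the window as a line and the best matrix site as colour (bits). The 3 regions of ARF4 lie from 56 bp upstream to 1065 bp downstream of its start, and the highest scores are at IAA15 (15.2), IAA20 (13.8) and ARF7 (13.5).

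The regions lay in every part of the windows but in no coding exon. There were 13 upstream, of which 5 were within 1000 bp of the start, 10 inside the gene and 1 downstream. Densities are pairs of gene and region per Mb of summed window length, so a region near several genes counted once for each. Within 1000 bp upstream members had 98.0 pairs per Mb, against 47.7 at other protein-coding genes, and no interval was computed. Farther upstream the values were 78.4 at members against 31.5 at other genes, and within the gene 70.5 against 24.4, whereas downstream of the gene members had 19.6, from a single region, against 34.1. Of the 10 regions inside members, 5 were in introns of the coding part, 2 in introns of the 5′ UTR and 3 in the 5′ UTR itself. Counting all genes, 13 of the 24 regions lay inside a protein-coding gene, 9 in introns (69.2%), 4 in UTR exons (30.8%) and 0 in coding exons, against 45.3%, 37.9% and 16.8% of the 1572 other regions inside genes. Over all regions, inside genes or not, coding exons held 0 of 24 member regions and 7.48% of other regions. The count of 0 of 24 allows a share of up to 14.2%, so the share of other regions lies within that limit.

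More than 1 region at a gene was seen in a larger share of bound members than of other bound genes. ARF1, ARF4, ARF18, IAA5 and IAA15 had at least 2, which is 5 of the 18 bound members (27.8%), against 596 of the 4929 other bound genes (12.1%). These shares were not matched for window length. The windows of ARF1, ARF4 and ARF18 exceeded the upper quartile of the members' windows, 7362 bp, while those of IAA5 and IAA15 were below the lower, 5633 bp. Both regions at IAA15, and 1 each at ARF18 and IAA5, were nearer to another gene's start. At least 3 regions were found at ARF4 (5.56% of bound members) and at 34 other genes (0.690%). Apart from the overlapping pair at IAA15, the best sites of neighbouring regions were 487 to 3585 bp apart. The authors split consensus peaks that held subpeaks, and the list does not show which regions came from 1 peak.

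No region of a member held a canonical CArG box (0 of 24, which allows a share of up to 14.2%), whereas 567 of the 3528 other regions did (16.1%), as did 2.34% of the 290249 unbound tiles of 400 bp that cover the rest of the genome. The looser box with C or T at the second and A or G at the ninth position was found in 5 of the 24 (20.8%, interval 7.13% to 42.2%), at ARF4 (intron), ARF7, IAA5 (intron), IAA14 and IAA29, against 56.3% of other regions and 13.9% of unbound tiles. With up to 1 mismatch to the canonical box at any position the order was different, with 21 of 24 member regions (87.5%, interval 67.6% to 97.3%), 79.9% of other regions and 39.7% of tiles.

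The place of the mismatches in the best sites was compared next. The core had 1 mismatch in 9 member regions (37.5%), 2 in 13 (54.2%) and at least 3 in 2 (8.33%), against 38.2%, 36.4% and 12.6% of other regions. A C or G among the 6 central bases, as in the sites of ARF3, ARF9, IAA15, IAA19 and IAA27 printed above, was found in 14 member regions (58.3%, interval 36.6% to 77.9%), against 49.4% of the other regions with a mismatch, which lies within the interval. Only the outer C and G pairs were broken in the remaining 10, as at ARF7, IAA5, IAA14 and IAA29, where both pairs are reduced to a single C and a single G around an AT-rich centre. TT before the core or AA after it, at the outer ends of the matrix, was present in 20 of 24 (83.3%), against 90.6% of other regions.

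**Figure D3:**
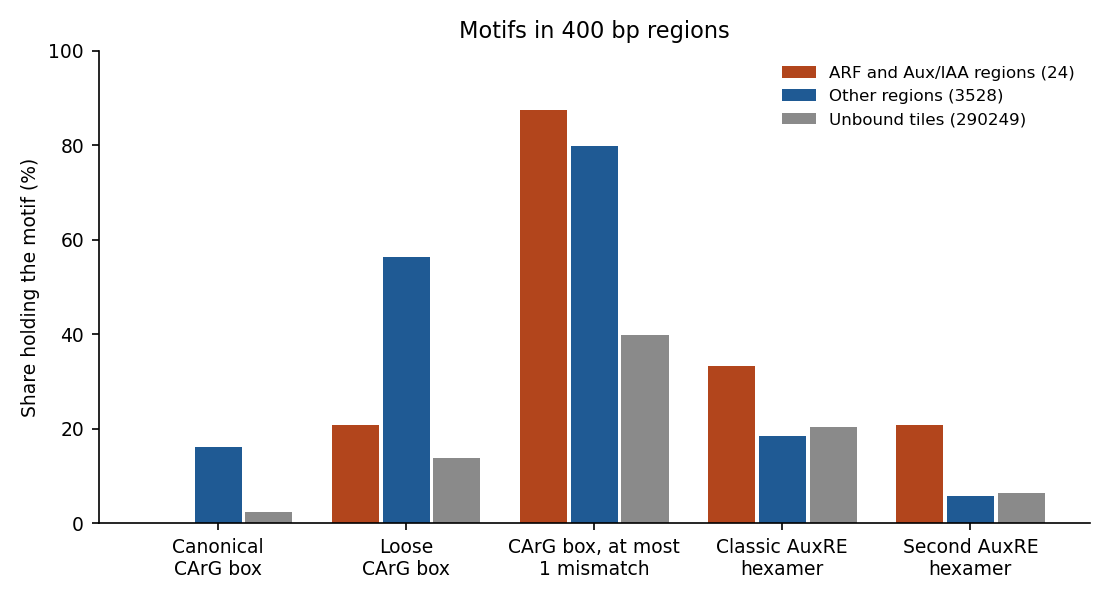
Share of sequences of 400 bp (y axis, percent) that hold each motif in the member regions (orange), the other regions (blue) and the unbound tiles (grey), where the loose box has C or T second and A or G ninth and the classic and second AuxRE hexamers are TGTCTC and TGTCGG. The canonical box is in 0 of 24 member regions and 16.1% of other regions, and TGTCGG is in 20.8% of member regions and 5.73% of other regions. Unbound tiles inside the members' own windows, not drawn, held TGTCGG in 9.46%.

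The matrix of 16 bp was fitted on the 3528 regions outside the member windows, so the scores of the members were not used to build it. Member regions had a median best score of 9.68 bits (lowest 5.85, highest 15.2, quartiles 7.96 and 11.6), against 10.7 bits in other regions (quartiles 8.74 and 12.7) and 5.18 bits in unbound tiles (quartiles 3.62 and 6.94). The median of the members thus lay between the lower quartile and the median of the other regions and above the upper quartile of the tiles. The 5 lowest values, 5.85 to 6.74 bits, were at ARF18, IAA5, ARF1 (both regions) and ARF4 (5′ UTR) and fell below the upper quartile of unbound tiles. The best site lay within 25 bp of the region centre in 19 of 24 (79.2%), with a median offset of 15 bp, against 68.4% and 17 bp in other regions. GC content was 33.8% ± 3.91 (SD, n = 24) in member regions, 32.5% ± 5.10 (SD, n = 3528) in other regions and 36.1% ± 6.61 (SD, n = 290249) in tiles.

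**Figure D4:**
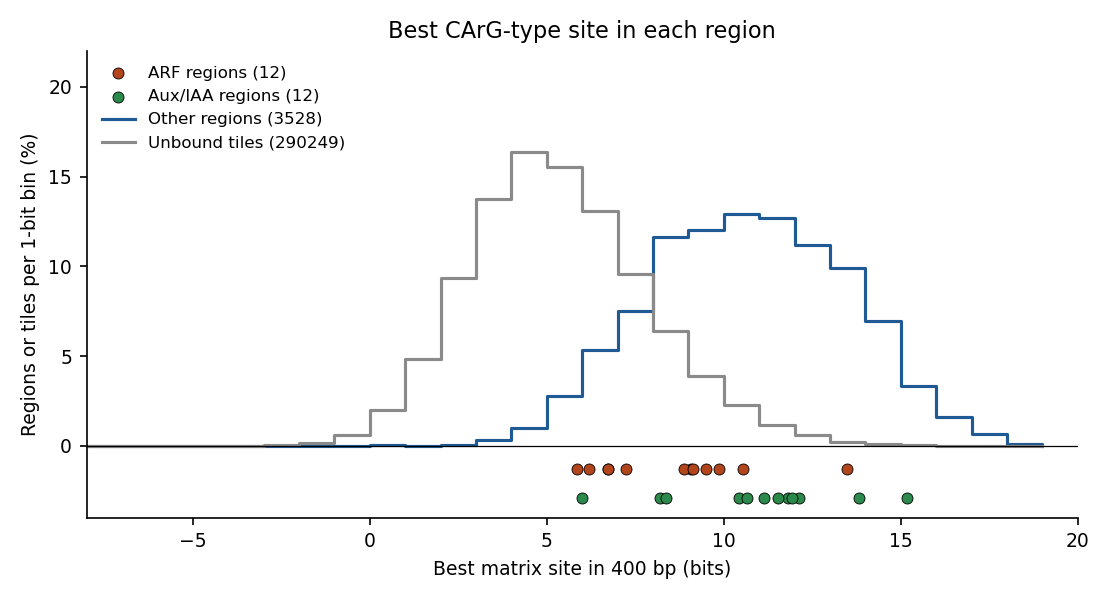
Best matrix score (x axis, bits) of the ARF regions (orange points) and the Aux/IAA regions (green points), above which the distributions over the other regions (blue) and the unbound tiles (grey) are drawn as the percent of each set per bin of 1 bit. The members range from 5.85 to 15.2 bits, and their median of 9.68 lies between those of the tiles (5.18) and the other regions (10.7).

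AuxREs, the sites of ARFs themselves, were counted on both strands in the same regions. TGTCTC, the classic element, was in 8 of the 24 member regions (33.3%, interval 15.6% to 55.3%), against 18.4% of other regions and 20.4% of unbound tiles. TGTCGG, the form with higher affinity in vitro, was in 5 (20.8%, interval 7.13% to 42.2%), against 5.73% and 6.39%. At least 1 of these hexamers, which cannot start at the same base, was in 10 (41.7%), against 23.4% of other regions and 25.4% of tiles. The windows of the members were themselves richer than the genome: of 793 unbound tiles inside them, 25.1% held TGTCTC, 9.46% TGTCGG and 32.7% either. ARF3, ARF7 and IAA27 had both hexamers in 1 region.

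The 5 hexamers closest to a best site are shown, picked by that distance, and no distances in other regions were computed to set beside them. The hexamer is in capitals on the plus strand of TAIR10, where GAGACA and CCGACA are TGTCTC and TGTCGG read on the other strand. The centres of hexamer and best site were 14 bp apart in the 5′ UTR region of ARF4 and 20 bp apart in the region of ARF3, where the hexamer lies just before the site printed above. In the region of ARF1 upstream of the gene, 2 hexamers lay 35 and 44 bp from the site, and the hexamer of ARF13 was 43 bp away. The next was at IAA34, at 66 bp, and the remaining regions had theirs farther off. The best sites of these ARF4 and ARF1 regions scored 6.74 and 6.73 bits, below the upper quartile of unbound tiles (6.94). Those of ARF13 and ARF3 scored 7.23 and 10.5 bits. A hexamer is a match of letters, and ARF binding was not measured.
ARF4, 5′ UTR region, chr5:24312217-24312222: caaaagGAGACAagaaga
ARF3, chr2:14331383-14331388: aatgccCCGACAtctgtt
ARF1, upstream region, chr1:21976482-21976487: tggttaGAGACAaaggag
ARF1, upstream region, chr1:21976491-21976496: acaaagGAGACAtgtcca
ARF13, chr1:12447845-12447850: tttgttTGTCTCctagtt

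Sites of the same strength were present at unbound members. Scanned over the whole window, the best site scored 8.37 to 15.2 bits in the 18 bound members (quartiles 10.1 and 13.0) and 6.86 to 15.1 bits in the 33 unbound members (quartiles 8.90 and 11.2). Other genes with windows between the members' quartiles had a median of 11.8 bits where bound and of 10.1 bits where unbound. In 9 of the 18 bound members the best site of the window was inside a region, and in the other 9 it was elsewhere, as at ARF9, where the region site of 9.87 bits was outscored by a site of 14.0 bits 855 bp into the gene. Of the unbound members, 5 had a site of at least 12 bits: ARF2 (15.1, at 720 bp upstream), IAA18 (14.5, at 420 bp upstream), IAA2 (14.4, at 1000 bp upstream), ARF5 (12.3) and ARF17 (12.2).

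The sites of ARF7 and ARF2 are shown since they are almost alike while only that of ARF7 was in a region. Over 16 bp on the plus strand they differ by 1 substitution, T5C, in which ARF7 has the first base, ARF2 the last, and positions count from 1 at the 5′ end. The change gives ARF2 an intact pair of C and the higher score, 15.1 against 13.5 bits. Capitals here mark the whole scored site.
ARF7, chr5:7021951-7021966: TTTCTATAAAAAGAAA
ARF2, chr5:24909464-24909479: TTTCCATAAAAAGAAA

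The windows of members did contain canonical boxes, outside the regions. There were 26 such boxes, 10 at bound members (2 each at ARF1, ARF3, ARF11 and IAA14, 1 each at IAA15 and IAA27) and 16 at unbound members. None was in a region (0 of 26), which largely restates that no member region held a canonical box and is not a separate result. In the windows of other protein-coding genes 534 of the 6497 boxes were in a region (8.22%), below the 13.2% that 0 of 26 allows. By gene, 6 of 18 bound members (33.3%) and 13 of 33 unbound members (39.4%) had a canonical box in the window, against 948 of 2345 bound and 3294 of 10309 unbound other genes of like window. The unbound members with a box were ARF16, ARF20, ARF22, IAA1, IAA2, IAA7, IAA10, IAA13, IAA18, IAA26, IAA28, IAA31 and IAA33, with 2 boxes each at IAA2, IAA18 and IAA28. Their best window sites ranged from 7.94 bits at IAA10 to 14.5 bits at IAA18.

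**Figure D5:**
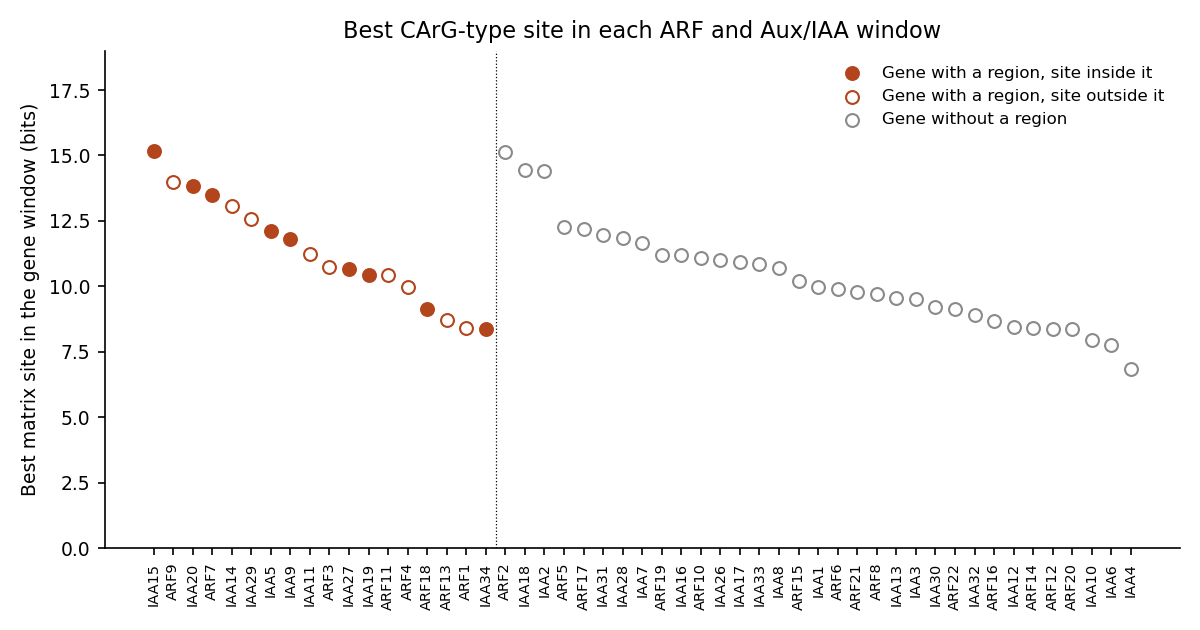
Best matrix site in the window of each of the 51 genes (y axis, bits), ordered by score within the 18 bound genes (orange, filled where the site lies in a region) and the 33 unbound genes (grey). The ranges overlap, 8.37 to 15.2 bits in bound and 6.86 to 15.1 bits in unbound genes.

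Closest relatives were compared by whether each had a region. The closest relative was the member with the highest protein alignment score, not the highest identity, and 17 pairs of members were each other's closest. ARF11 and ARF18, with 73.6% identity, were the only one of these pairs with both genes bound, in 8 pairs 1 gene was bound and in 8 neither was. ARF3 and ARF4, both bound, were not such a pair. ARF3 scored highest with ARF4 (46.4% identity), but ARF4 scored highest with ARF2 (39.8%), so the division depends on this choice of relative. Of the 34 genes in these pairs 10 were bound, and whether the division differs from that of unrelated pairs was not tested. In the divided pairs, ARF1 was bound and ARF2 was not (56.6% identity), as were ARF7 but not ARF19 (66.2%), IAA19 but not IAA6 (66.1%), IAA14 but not IAA7 (81.2%), IAA9 but not IAA8 (60.2%), IAA11 but not IAA10 (55.0%), IAA20 but not IAA30 (85.4%) and IAA34 but not IAA32 (69.9%). Pairs with as much identity and no region in either window included IAA1 and IAA2 (80.0%), IAA3 and IAA4 (80.2%), IAA12 and IAA13 (79.1%) and ARF6 and ARF8 (64.4%). The very similar genes ARF12 and ARF22 (91.7%) and ARF20 and ARF21 (94.6%) were unbound too. Sequences of 128 bp that recur in the genome made up no more than 1.51% of the windows of this cluster, and up to 5.29% of the windows of the other members, the highest at IAA8.

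The boundary of the windows decided a few cases. The bound genes nearest to the limit were ARF11, ARF1 and IAA11, with midpoints 2920, 2862 and 2804 bp upstream, and IAA20, 850 bp past its end. Just outside were IAA32, with a region 126 bp beyond the upstream limit, ARF22, 339 bp beyond it, ARF20, 72 bp beyond the downstream limit, and ARF21, 938 bp outside. When the window was shortened to 1000 bp upstream and the gene itself, 11 members were bound (21.6%), against 9.89% of other genes, and ARF3, ARF9, ARF11, ARF13, IAA11, IAA15 and IAA20 were no longer counted, leaving ARF1, ARF4 and ARF18 among the repressors.

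The rest of the auxin pathway was bound at close to the share of all genes. Of 56 other genes, 12 had a region (21.4%, interval 11.6% to 34.4%, against 18.9% of genes of like window length), each a single region. Among 14 biosynthesis genes 4 were bound (28.6%, against 18.3%). TAA1, which makes the precursor, was bound 2712 bp upstream (8.05 bits), and of the YUCCA flavin monooxygenases that convert it, YUC2 was bound 205 bp upstream (13.6 bits), YUC5 1308 bp upstream (7.66 bits) and YUC7 1805 bp upstream (9.43 bits). The region of YUC2 was the only region of these genes with a canonical box. Of the 6 receptors 2 were bound (33.3%, against 20.7%), TIR1 in an intron (10.1 bits) and AFB5 954 bp upstream (13.0 bits).

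Of 15 transport genes 3 were bound, against 20.5% of genes of like window length. Among them, PIN6, of the family of efflux carriers, had a region 226 bp past its end (8.78 bits), and the influx carrier AUX1 had a region 1412 bp upstream with a weak site (5.86 bits). Of 8 genes of the GH3 enzymes, which conjugate auxin to amino acids, 3 were bound (37.5%, against 19.8%), GH3.1, GH3.4 and GH3.17, at 2384, 2856 and 1871 bp upstream, with best sites between 6.54 and 13.0 bits. None of the 5 genes of the TOPLESS corepressors was bound (which allows up to 52.2%, against 23.7% of genes of like window length). Nor was any of the 8 small RNA genes, MIR160A to MIR160C, MIR167A to MIR167D and TAS3, whose products target ARF transcripts (up to 36.9%, against 12.1%). Both limits include the share of genes of like window length.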

How the data were processed

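Per the study's methods, the authors aligned paired-end reads to the nuclear chromosomes of TAIR10, discarded duplicates and called peaks per replicate against input DNA. They joined the 3 replicates into consensus peaks, split those that held subpeaks and set each to 200 bp on either side of its maximum. Bowtie2, MACS2 and SAMtools are named in the submitters' processing notes, with no version given in the sources used here. In the deposited list each region is a position with no other value. How strictly peaks were called and joined sets which sites appear at all.

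Genes were taken from the TAIR10 reference with its NCBI RefSeq annotation, and coordinates count from 1. Expectation maximisation with 30 iterations gave the palindromic matrix of 16 bp, allowing 0 or 1 site per region. Closest relatives came from global alignment (BLOSUM62, gap opening 11, extension 1) of proteins translated from the longest coding sequence, and were picked by score. Intervals are exact Clopper-Pearson at 95%. No test was run, since the single list has no replicates. The members and lists were chosen with earlier results of these data known. The rule was to name every bound member with each region, unbound members by group or where the window holds a canonical box, and other auxin genes where bound, of which 1 is not reported here. Members singled out for a window site of at least 12 bits, and the pair ARF7 and ARF2, were chosen after their values were seen. Alternatives were other windows, assignments, gene sets, box forms and matrices. The matrix fit, the window limits and the box search were tested on simulated data, and the other steps were not. Python 3.11.15, numpy 2.4.6, scipy 1.17.1, Biopython 1.88 and matplotlib 3.10.9 were used.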

Additional observations from a re-analysis of the deposited data

How the results depend on the processing

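Of 42 alternatives, 34 left the value within 1.5 times, or within 1 SD for scores. That SD, 2.59 bits over member regions, is wider than the gap between the member and other medians (9.68 and 10.7 bits). The rule therefore tests the score little. In each score setting the member median was below that of other regions, as with the matrix of 10 bp (8.48 against 9.14 bits). When the window was shortened to 1000 bp upstream and the gene itself, 11 members, 4 ARFs and 3 repressor ARFs were bound, and 9.89% of other genes. When each region counted only for the nearest gene start, 17 members were bound, against 11.6% of other genes. ARF5, ARF20 and IAA7 were gained, and ARF13, IAA11, IAA15 and IAA20 were no longer counted. Member regions with a CArG box numbered 0 for the canonical form, 5 for the looser form and 21 with up to 1 mismatch. The other windows gave 17 to 21 bound members (33.3% to 41.2%), against 15.2% to 23.0% of other genes. Counting all 17 ARFs other than the activators as repressors lowered the bound share to 41.2%, against 85.7% for the 7. The alternatives for the repressor ARFs, and the one that left out the ARF12 to ARF22 cluster, were chosen after seeing the data. No paired analysis was possible because the list is of 1 group whose replicates were combined, and for the same reason no replicate could be left out. The list holds no counts, so a gene without a region may be bound below the authors' threshold.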
